A study of Rattus norvegicus with 16 samples.

Results

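Mitochondrial ribosomal proteins are the protein subunits of the ribosome inside mitochondria, and their genes carry symbols that begin with Mrpl (named for the large subunit) or Mrps (named for the small subunit). The members described here were all genes whose platform symbol was Mrpl or Mrps followed by a digit. Names and not measured values decided which genes were members, but this family was chosen with earlier results of these data known. The platform annotation held 54 of them, 34 Mrpl and 20 Mrps genes, of 14839 named genes. A level was obtained for 53 members, 33 Mrpl and 20 Mrps genes, among the 12156 genes tested, and the single probe set of Mrpl2, at a mean log2 intensity of 4.42, lay under the filter of 6.01. The 53 measured members rested on 298 probe sets, with a median of 5 and a range of 1 to 12 per member, and only Mrpl20 rested on a single probe set. No measured member had a group mean under the filter.

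The rats were female, of the Sprague-Dawley strain and 5 weeks old, and their liver RNA was read on Affymetrix exon arrays, which sample each transcript with several probe sets. All 4 groups received a Teklad mash (4%) diet. It was supplemented for 7 days with UAB30 at 200 ppm, with 4-methyl-UAB30 (MeUAB30) at 200 ppm or with Targretin at 150 ppm. Control rats received the diet without a compound, and the labels state no feeding period for them. Each group had 4 arrays, 16 in all, and the labels do not say that the arrays were separate animals, so the p-values cover the spread among the arrays, which may be technical. Each diet was given to 1 group, so an effect of a compound and of its batch of diet cannot be told apart. All 3 compounds activate RXR, the retinoid X receptor, which pairs on DNA with partner receptors for lipids, vitamins and foreign compounds; Targretin is bexarotene. The comparisons addressed how the members' transcripts in liver differed between rats fed each agonist and Control, and between the agonists.

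The mitochondrial ribosome translates the few messenger RNAs encoded by mitochondrial DNA, all of which specify subunits of the respiratory chain and ATP synthase. Its RNA comes from mitochondrial DNA, whereas all of its proteins are encoded in the nucleus, translated in the cytosol and imported. Some of its proteins have counterparts in the bacterial ribosome, and others are found only in mitochondria. In a hepatocyte, rich in mitochondria, this machinery supplies the respiratory chain that serves fatty acid oxidation, ketogenesis and gluconeogenesis. The genes are scattered over the nuclear genome, and many of them carry binding motifs for nuclear respiratory factor 1 (NRF1) or for ETS factors such as GABP (also called NRF2) near their start.

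The following promoter windows are shown because their genes rose with MeUAB30, and they cover both extremes of motif content among such genes. They come from RefSeq on build GRCr8, run from 250 bases before to 50 bases after the annotated gene start, 300 bases in all, and are written 5′ to 3′ on the strand of the gene. Capitals mark a match, on either strand, to the NRF1 motif (GCGCA, a base of any kind, then GCGC) or to the ETS motif CCGGAAG. Mrpl55 lies at chr10:44488003-44488302 on the plus strand, Mrps26 at chr3:138222074-138222373 on the plus strand, Mrpl52 at chr15:31852686-31852985 on the plus strand, Mrps18a at chr9:22367331-22367630 on the minus strand and Mrps11 at chr1:142117014-142117313 on the plus strand.
Mrpl55: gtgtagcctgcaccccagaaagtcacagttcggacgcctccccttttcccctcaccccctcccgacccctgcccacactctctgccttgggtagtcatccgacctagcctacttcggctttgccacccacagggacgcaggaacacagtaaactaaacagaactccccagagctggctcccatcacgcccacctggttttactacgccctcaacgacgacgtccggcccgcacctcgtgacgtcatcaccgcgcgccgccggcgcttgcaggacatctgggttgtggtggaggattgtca
Mrps26: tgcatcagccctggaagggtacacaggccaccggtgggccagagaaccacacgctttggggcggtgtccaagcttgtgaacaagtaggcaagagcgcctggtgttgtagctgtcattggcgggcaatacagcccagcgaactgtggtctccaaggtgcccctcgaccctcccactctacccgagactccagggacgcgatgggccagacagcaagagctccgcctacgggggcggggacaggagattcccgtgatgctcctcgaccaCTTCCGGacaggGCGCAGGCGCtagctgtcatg
Mrpl52: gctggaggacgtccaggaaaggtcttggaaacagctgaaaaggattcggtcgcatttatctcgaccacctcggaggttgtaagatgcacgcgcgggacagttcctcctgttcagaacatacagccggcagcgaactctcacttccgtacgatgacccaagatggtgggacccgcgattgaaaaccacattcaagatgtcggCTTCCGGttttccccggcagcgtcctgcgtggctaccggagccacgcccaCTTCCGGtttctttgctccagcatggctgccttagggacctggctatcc
Mrps18a: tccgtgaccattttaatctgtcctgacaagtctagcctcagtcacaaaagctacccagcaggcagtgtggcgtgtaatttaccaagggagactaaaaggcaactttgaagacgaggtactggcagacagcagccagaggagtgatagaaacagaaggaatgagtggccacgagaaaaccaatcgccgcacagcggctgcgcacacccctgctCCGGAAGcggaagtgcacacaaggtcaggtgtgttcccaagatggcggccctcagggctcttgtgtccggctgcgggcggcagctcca
Mrps11: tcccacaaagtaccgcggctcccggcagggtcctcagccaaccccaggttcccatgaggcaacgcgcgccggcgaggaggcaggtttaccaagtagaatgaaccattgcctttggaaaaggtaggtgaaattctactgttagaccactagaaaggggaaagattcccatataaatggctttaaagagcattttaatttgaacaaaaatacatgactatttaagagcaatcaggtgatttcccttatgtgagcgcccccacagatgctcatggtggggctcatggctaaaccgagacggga
Mrps26 held 1 match to each motif, near the end of its window and close to each other without overlapping. Mrpl52 held 2 ETS matches on the opposite strand, Mrps18a held 1 ETS match, and Mrpl55 and Mrps11 held no match in these windows. The window of Mrps11 also covers the start of Mrpl46, a large-subunit member on the minus strand, whose window lies at chr1:142116981-142117280. The annotated starts of that pair are 234 bases apart, and the genes point away from each other.

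The promoter table matched 44 of the 54 members, with 46 promoters. The NRF1 motif stood in 7 of the 46 windows (15.2%), in 7.49% of the windows of all genes tested and in 4.25% of all promoters in the table. The ETS motif stood in 14 member windows (30.4%), in 14% of the windows of all genes tested and in 8.75% of all promoters. Median GC content was 55.5% for the members, 59.7% for all genes tested and 51.7% for all promoters. Among the 13 matched members that rose with MeUAB30, 1 window (7.69%) held the NRF1 motif and 4 (30.8%) held the ETS motif. Among the 32 windows of measured members that did not pass that test, 6 (18.8%) held the NRF1 motif and 10 (31.2%) held the ETS motif. These matches are descriptions of letters in a window, and no binding was measured.

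Before the diets are compared, some arrays need to be set apart. Targretin replicate 2 was the lowest array of its group for 52 of the 53 members, MeUAB30 replicate 1 for 45, UAB30 replicate 3 for 34 and Control replicate 3 for 32. The same 4 arrays had the narrowest intensity range of their groups, taken here as the distance on the log2 scale from the median probe set to the 99th percentile: 6.08 for Targretin replicate 2, 6.15 for MeUAB30 replicate 1, 6.14 for UAB30 replicate 3 and 6.06 for Control replicate 3. At the other end, Control replicate 2 was the highest array of its group for 42 members and UAB30 replicate 1 for 41. Averaged over the members, the log2 deviation from each gene's mean was -0.61 on Targretin replicate 2, and 0.05 to 0.11 on the other 3 Targretin arrays. Over all genes tested, the mean deviation of an array lay between -0.24, on Targretin replicate 2, and 0.09. The part of this array-wide spread in the changes below was not tested, and counts without these 4 arrays are given beside the main ones.

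**Figure D1:**
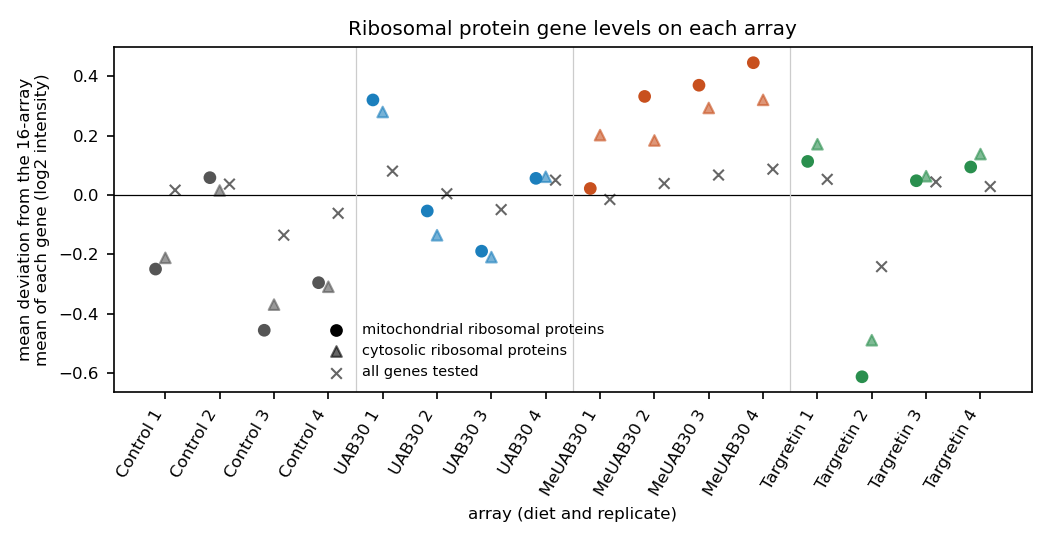
Mean deviation of the log2 intensity from each gene's mean over the 16 arrays (y axis), for each array (x axis, by diet and replicate), averaged over the 53 mitochondrial ribosomal protein genes (circles), the 88 genes taken by name as cytosolic ribosomal proteins (triangles) and all 12156 genes tested (crosses). The circles lie between -0.46 and 0.06 in Control and between 0.02 and 0.45 with MeUAB30, and Targretin replicate 2 is the lowest array at -0.61.

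With MeUAB30, 18 of the 53 measured members rose against Control and 0 fell, 34.0% of the members beside 7.88% of all genes tested that rose (2.01% fell; limma over all genes, Benjamini-Hochberg adjusted p under 0.05). All MeUAB30 arrays lay above all Control arrays in 20 of the 53 members, beside 11.7% of all genes. The rises ran from 1.41-fold to 2.30-fold, and 16 of the 18 were at least 1.5-fold. Rises occurred in both classes, in 11 of 33 Mrpl and 7 of 20 Mrps genes. The log2 change was positive in 52 of 53 members, with a median of 0.50 beside 0.06 over all genes tested, and of 0.32 with each array's intensity range as a covariate. By group mean, 48 of the 53 members were highest in the MeUAB30 group and 44 were lowest in Control. In liver tissue, a higher share of a cell type and more RNA per cell cannot be told apart. Without the 4 arrays set apart, 34 members rose, 17 of them among the 18, beside 12.3% of all genes. These arrays were singled out as the lowest of their groups on the members themselves, so leaving them out narrows the members' spread by construction, and that count is no independent support. With single arrays left out the count ran from 11, without MeUAB30 replicate 2, Control replicate 1 or Control replicate 4, to 24, without Control replicate 2.

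**Figure D2:**
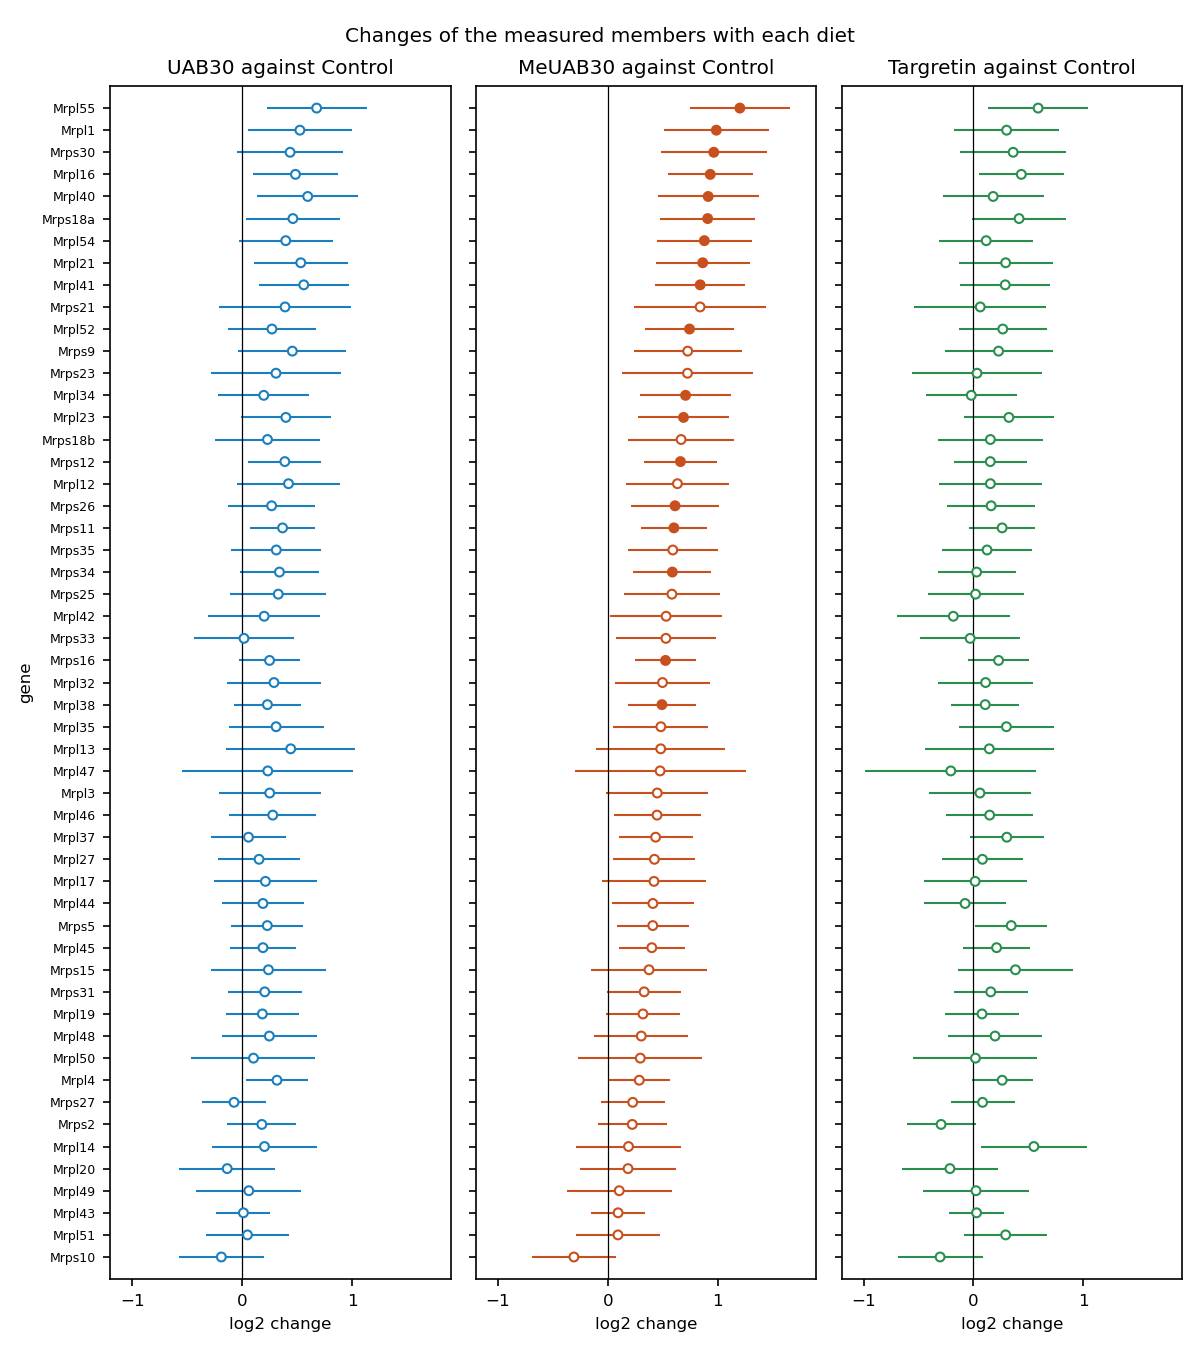
Log2 change against Control (x axis) of each of the 53 measured members (y axis, ordered by the change with MeUAB30) with UAB30, MeUAB30 and Targretin. Points are the estimates from the 16-array model, lines are 95% confidence intervals and filled points passed the adjusted p threshold of 0.05: 18 with MeUAB30 and 0 with UAB30 or Targretin.

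Mrpl55, a large-subunit protein found only in mitochondria, had the largest change. Its log2 intensity was 6.90, 7.59, 6.89 and 6.85 on the 4 Control arrays and 8.04, 8.32, 8.33 and 8.35 on the 4 MeUAB30 arrays. All MeUAB30 arrays lay above all Control arrays, although Control replicate 2 stood well above the other Control arrays. The rise was 2.30-fold (log2 1.20, SE 0.22, adjusted p = 0.00211), and the promoter printed above holds neither motif. With UAB30 the same gene read 8.32, 7.33, 7.62 and 7.68, and with Targretin 7.87, 7.12, 7.72 and 7.89. Both groups overlapped Control, and replicate 1 of UAB30 was as high as the MeUAB30 arrays.

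Among the other proteins of the large subunit, Mrpl16, whose bacterial counterpart sits next to the catalytic centre of the ribosome, also rose. Its log2 intensity was 8.56, 8.64, 8.16 and 8.23 in Control and 9.11, 9.38, 9.34 and 9.49 with MeUAB30. The 2 groups did not overlap, and the rise was 1.91-fold (log2 0.93, SE 0.18, adjusted p = 0.00399). Mrpl1, the counterpart of the bacterial protein of the L1 stalk near the exit site for transfer RNA, read 7.56, 7.66, 7.02 and 7.53 in Control and 8.17, 8.31, 8.47 and 8.77 with MeUAB30. Its groups did not overlap either, and it rose 1.98-fold (log2 0.99, SE 0.23, adjusted p = 0.0102).

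Mrps30 and Mrps18a are named for the small subunit, but their products sit in the large subunit of the mammalian mitochondrial ribosome. Mrps30 read 7.24, 7.55, 6.50 and 7.31 in Control and 7.84, 8.11, 8.24 and 8.27 with MeUAB30. Control replicate 3 was far below the other Control arrays, and the groups did not overlap (1.95-fold, adjusted p = 0.0126). Mrps18a read 7.91, 7.99, 7.36 and 7.50 in Control and 8.19, 8.92, 8.58 and 8.72 with MeUAB30. Its groups stood apart by a small gap, between Control replicate 2 and MeUAB30 replicate 1, and it rose 1.88-fold (adjusted p = 0.00927).

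Mrpl40 and Mrpl54, like Mrpl55, belong to the set of large-subunit proteins with no bacterial counterpart. Mrpl40 read 6.37, 7.03, 6.48 and 6.61 in Control and 7.15, 7.99, 7.41 and 7.60 with MeUAB30, a 1.88-fold rise (adjusted p = 0.0129). Mrpl54 read 8.13, 8.86, 8.33 and 8.22 in Control and 9.06, 9.24, 9.29 and 9.47 with MeUAB30, a 1.84-fold rise (adjusted p = 0.0110). In both genes Control replicate 2 was the highest Control array and MeUAB30 replicate 1 the lowest MeUAB30 array, and the groups did not overlap. Mrpl21, which has a bacterial counterpart, read 7.68, 8.42, 7.96 and 7.77 in Control and 8.40, 8.92, 8.86 and 9.10 with MeUAB30. It rose 1.82-fold (adjusted p = 0.0119), with Control replicate 2 just above MeUAB30 replicate 1.

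**Figure D3:**
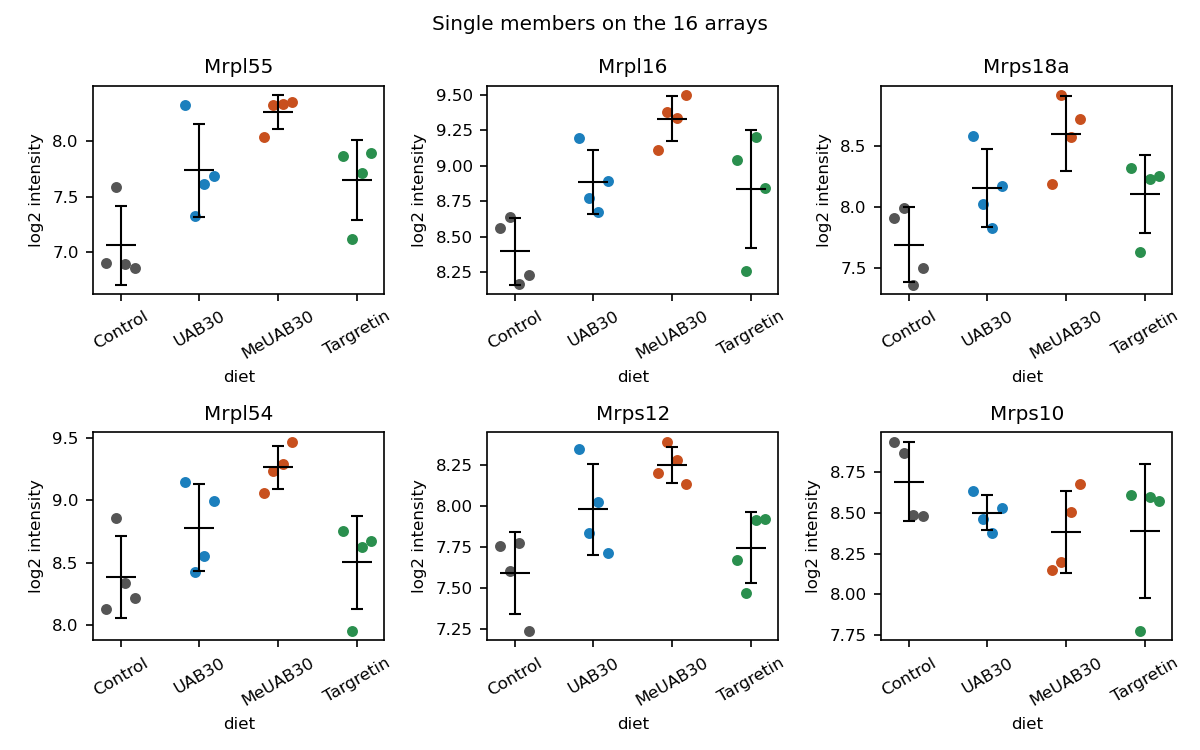
Log2 intensity (y axis) of 6 members on each array, by diet (x axis): Mrpl55, Mrpl16, Mrps18a and Mrpl54 of the large subunit, and Mrps12 and Mrps10 of the small subunit. Points are arrays, horizontal bars are the means of 4 arrays and vertical bars are 1 SD; the first 5 genes have all MeUAB30 arrays above all Control arrays, and Mrps10 does not.

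In the small subunit, Mrps12, the counterpart of the bacterial decoding-centre protein that governs accuracy, read 7.76, 7.60, 7.77 and 7.24 in Control and 8.20, 8.39, 8.28 and 8.13 with MeUAB30. The groups did not overlap, and the rise was 1.58-fold (log2 0.66, SE 0.16, adjusted p = 0.0126). The remaining 9 members that rose were named after their values were seen. In the large subunit they were Mrpl41 (log2 0.84), Mrpl52 (0.74), Mrpl34 (0.71), Mrpl23 (0.69) and Mrpl38 (0.49). Of these, Mrpl34 and Mrpl23 have bacterial counterparts, that of Mrpl23 at the exit of the nascent chain, and the others occur only in mitochondria. In the small subunit they were Mrps26 (0.61), Mrps11 (0.60), Mrps34 (0.59) and Mrps16 (0.53), of which Mrps11 and Mrps16 have bacterial counterparts. The groups overlapped in 2 of the 18 members that rose, Mrpl21 and Mrps26.

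For a count by class, Mrpl genes numbered up to 36 and Mrps genes numbered up to 21 were taken to have a bacterial counterpart. The others were taken as found only in mitochondria. The 2 classes by number were called alike often, 9 of 27 (33.3%) and 9 of 26 (34.6%), with median log2 changes of 0.50 and 0.51. The difference was not tested. The gene values did not rest on single probe sets: in 16 of the 18 members that rose every kept probe set was higher with MeUAB30 than in Control, and the exceptions were Mrpl38 (8 of 9) and Mrps11 (5 of 6). Over all members 272 of 298 probe sets (91.3%) were higher, beside 54.1% of the named probe sets of all genes.

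The 35 members that did not pass had positive estimates in all but 1 case, and the 95% confidence intervals of 18 of them lay above 0. Counted over all 53 members, 36 (67.9%) were higher at an unadjusted p under 0.05 (limma), beside 17% of all genes. Mrpl12, which carries the counterpart of the bacterial stalk protein and also binds mitochondrial RNA polymerase, changed by log2 0.63 without passing (adjusted p = 0.0830), with 1 MeUAB30 array at 6.66 below the Control array at 6.78. Mrps18b, a small-subunit protein, changed by 0.67 (adjusted p = 0.0762), and Mrps5 by 0.41 (adjusted p = 0.113). Mrpl46, the divergent neighbour of Mrps11, had a log2 change of 0.45 (adjusted p = 0.156), although all its MeUAB30 arrays (7.68, 7.72, 7.67 and 8.08) lay above all its Control arrays (7.40, 7.60, 7.04 and 7.32). Mrps11 itself read 7.24, 7.69, 7.32 and 7.17 in Control and 7.78, 8.0, 8.06 and 7.99 with MeUAB30 (adjusted p = 0.0117). At the other end of the list stood Mrps10, a small-subunit protein with a bacterial counterpart and the single member with a negative estimate. Mrps10 read 8.93, 8.87, 8.49 and 8.48 in Control and 8.15, 8.20, 8.50 and 8.68 with MeUAB30, overlapping groups with a log2 change of -0.31 (SE 0.18, adjusted p = 0.345).

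**Figure D4:**
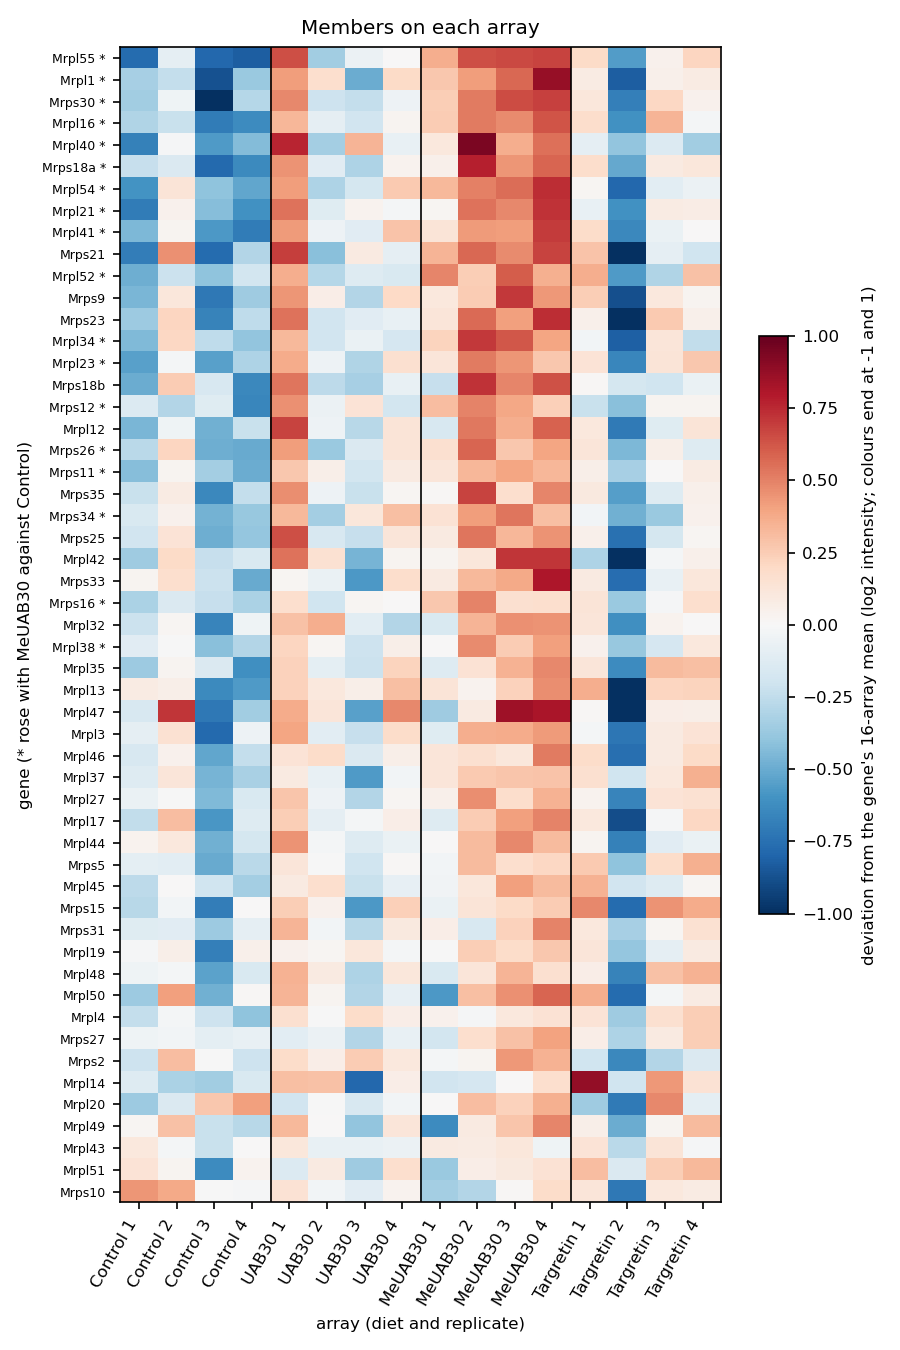
Deviation of the log2 intensity from each gene's mean over the 16 arrays (colour scale, ending at -1 and 1) for each of the 53 measured members (rows, ordered by the change with MeUAB30) on each array (columns, by diet and replicate); stars mark the 18 members that rose with MeUAB30. Most rows are blue on Control replicates 1, 3 and 4 and red on MeUAB30 replicates 2 to 4, and Targretin replicate 2 is blue in nearly all rows.

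With UAB30, fed at the same dose, 0 of the 53 members passed in either direction (limma), beside 10 of all genes tested (0.0823%), and 10 members (18.9%) reached an unadjusted p under 0.05, all upward, beside 6.34% of all genes that did so upward. The estimates were positive in 50 of 53 members, with a median log2 change of 0.25 beside 0.05 over all genes, and 251 of the 298 probe sets (84.2%) were higher than in Control beside 54% for all genes. The lowest adjusted p-values belonged to Mrpl55 (log2 0.68, adjusted p = 0.402), Mrpl41 (0.56, adjusted p = 0.458) and Mrpl40 (0.60, adjusted p = 0.504). Mrpl40 read 7.81, 6.71, 7.39 and 6.97 on the UAB30 arrays, with replicate 1 the highest and the groups overlapping. The 18 members that rose with MeUAB30 had log2 changes of 0.20 to 0.68 with UAB30, with a median of 0.40. Both diets were compared with the same Control arrays, so these values are given side by side only.

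UAB30 and MeUAB30 differ by the methyl group that the name of MeUAB30 gives, and they form the 1 pair of compounds at a matched dose and time. Tested directly against UAB30, MeUAB30 changed 0 of 53 members (limma), beside 169 of all genes tested (1.39%); 10 members (18.9%) reached an unadjusted p under 0.05, all higher with MeUAB30, beside 6.99% of all genes that did so in that direction. The median difference was 0.26 on the log2 scale beside 0.02 over all genes, and 50 of 53 members had a positive estimate. The lowest adjusted p-values belonged to Mrpl34, Mrpl52 and Mrpl16. Mrpl34 read 7.47, 6.96, 7.08 and 6.98 with UAB30 and 7.37, 7.85, 7.77 and 7.54 with MeUAB30, overlapping only through UAB30 replicate 1, with a difference of 0.51 (95% confidence interval 0.10 to 0.93, adjusted p = 0.291). Mrpl52 differed by 0.47 (0.07 to 0.88, adjusted p = 0.322) and Mrpl16 by 0.45 (0.06 to 0.84, adjusted p = 0.333). Over the members the bounds of these intervals reached from -0.55 to 1.05, so the members were not shown to respond alike to both compounds, nor differently after adjustment. The 6 contrasts among the 4 diets were each adjusted over all genes.

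With Targretin at 150 ppm, 0 of the 53 members passed against Control (limma), beside 265 of all genes tested (2.18%), and 4 members (7.55%) reached an unadjusted p under 0.05, all upward, a share near the 6.17% of all genes that did so. The estimates were positive in 45 members, with a median log2 change of 0.15 beside -0.01 over all genes, and 232 of 298 probe sets (77.9%) were higher beside 48.6%. The median rested on single arrays: it was 0.07 without Targretin replicate 1 or 4, 0.09 without Control replicate 3, 0.25 without Control replicate 2 and 0.28 without Targretin replicate 2. With the intensity range as a covariate it was 0.0039, with 29 of 53 estimates positive. Mrpl55 had the lowest adjusted p (log2 0.59, adjusted p = 0.245), followed by Mrpl14 (0.55, adjusted p = 0.343) and Mrpl16 (0.44, adjusted p = 0.357). Mrpl14, a counterpart of a bacterial protein at the face between the subunits, read 7.09, 6.90, 6.87 and 7.06 in Control and 8.10, 7.02, 7.65 and 7.36 with Targretin, with replicate 2 inside the Control range. Without Targretin replicate 2, 2 members (3.77%) rose against Control, Mrpl16 (log2 0.63) and Mrps5 (0.51), beside 2.68% of all genes. Mrps10 again had the most negative estimate, at -0.30 (adjusted p = 0.643), with 8.61, 7.78, 8.60 and 8.57 on the Targretin arrays.

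Targretin was fed at a lower dose than both other compounds, so its differences from them are not at matched doses. Mrpl54 and Mrpl34 were lower with Targretin than with MeUAB30 after adjustment, 2 of 53 members (3.77%) beside 3.91% of all genes, a share like the background. At an unadjusted p under 0.05 (limma), 28 members (52.8%) were lower and 0 higher, beside 14.3% and 5.13% of all genes. That count includes Targretin replicate 2, the lowest array of its group for 52 of the 53 members. Mrpl54 read 8.75, 7.95, 8.63 and 8.68 with Targretin, all below the MeUAB30 arrays given above (log2 difference -0.76, adjusted p = 0.0351). Mrpl34 read 7.12, 6.34, 7.27 and 6.91 with Targretin (log2 difference -0.73, adjusted p = 0.0379), again without overlap. Both calls rested on single arrays: 0 members passed without Targretin replicate 2, and likewise without MeUAB30 replicate 2, 3 or 4. Next came Mrps2, a counterpart of a bacterial small-subunit protein, with a difference of -0.52 (adjusted p = 0.0514). The median difference was -0.40 over the members, or -0.25 without Targretin replicate 2, and -0.07 over all genes. Against UAB30, 0 members passed with Targretin (limma), beside 1.23% of all genes, and 1 member, Mrps2, was lower at an unadjusted p under 0.05 (log2 difference -0.47, adjusted p = 0.207), beside 5.91% of all genes. The median difference there was -0.11 over the members and -0.06 over all genes, and without Targretin replicate 2 the members' median was 0.08.

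The members' levels moved together within groups as well as between them. The deviations of member pairs from their group means correlated with a median of 0.696 across the 16 arrays, beside 0.115 for pairs of all genes, and with a median of 0.447 across the 12 arrays left without the 4 set apart, beside 0.042. The points share arrays and their array-wide spread, so these values are descriptions.

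Mitochondrial ribosome proteins under other symbols and their partners were grouped from a written list. With MeUAB30, 4 of 6 measured genes of the 9 listed rose (66.7%), beside 7.88% of all genes, and the median log2 change of the 6 was 0.58. Ptcd3 and Gadd45gip1 did not pass. Dap3 (log2 0.58, adjusted p = 0.0436) encodes a small-subunit protein that binds GTP, and Aurkaip1 (0.90, adjusted p = 0.00213) another small-subunit protein. Mrpl58, which the platform lists as Ict1 and the name rule therefore left out, encodes a large-subunit protein that can release stalled chains (0.59, adjusted p = 0.0103). Oxa1l is no subunit but the inner-membrane insertase that receives chains from the ribosome. It read 9.11, 9.34, 9.12 and 9.03 in Control and 9.72, 10.01, 9.93 and 9.90 with MeUAB30, groups that did not overlap (0.74, adjusted p = 0.000893). With any single array left out the calls of Aurkaip1, Mrpl58 and Oxa1l held, and that of Dap3 was lost without any of 6 arrays (MeUAB30 replicates 2, 3 and 4, Control replicates 1, 3 and 4; adjusted p up to 0.115).

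Other steps of mitochondrial gene expression were read from further lists, and differences between lists were not tested. As above, 7.88% of all genes tested rose with MeUAB30, and shares of these short lists near that background are not read as a result about them. Of 10 measured translation factors 1 rose (10.0%; 17 listed), Tufm, the elongation factor that brings aminoacyl transfer RNA to the ribosome. Tufm read 9.02, 9.29, 9.07 and 9.07 in Control and 9.74, 10.04, 9.83 and 9.90 with MeUAB30, clearly apart (1.70-fold, adjusted p = 0.00173). Of 17 measured assembly and RNA modification factors 2 rose (11.8%; 29 listed), Mettl15, a methyltransferase of the small-subunit RNA (log2 0.61, adjusted p = 0.0199), and Ngrn, an assembly factor of the large subunit (0.37, adjusted p = 0.0289). The list of mitochondrial aminoacyl-tRNA synthetases also holds Qrsl1, Gatb and Gatc, which are subunits of an amidotransferase and no synthetases. Of its 19 measured genes 3 rose (15.8%; 22 listed), Cars2, Sars2 and Tars2, with log2 changes of 0.50, 0.36 and 0.45 and adjusted p-values of 0.0304, 0.0488 and 0.0457. These enzymes load cysteine, serine and threonine. The median log2 changes of these 3 lists were 0.18, 0.21 and 0.16, and no gene of them fell. The Tufm call held with any single array left out. The Mettl15, Ngrn, Cars2 and Tars2 calls were lost without MeUAB30 replicate 3 or 4, Control replicate 3 or 4, and for all but Mettl15 also MeUAB30 replicate 2 (for Tars2 also Control replicate 1), with adjusted p up to 0.130, and the Sars2 call without any 1 of the 8 arrays (up to 0.145).

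For the maintenance and transcription of mitochondrial DNA, 2 of 16 measured genes (12.5%; 21 listed) rose with MeUAB30, beside the same 7.88% of all genes. Hsd17b10, a dehydrogenase that is also a subunit of mitochondrial RNase P, read 9.82, 10.42, 9.87 and 9.95 in Control and 10.73, 10.76, 10.90 and 11.01 with MeUAB30. The groups did not overlap (log2 0.83, adjusted p = 0.00131), and Tefm, an elongation factor of mitochondrial transcription, also rose (0.74, adjusted p = 0.0403). The Hsd17b10 call held with any single array left out, and the Tefm call was lost without MeUAB30 replicate 1, 3 or 4 or Control replicate 1, 3 or 4 (adjusted p up to 0.126). Tfam, which packages mitochondrial DNA and starts its transcription, changed by 0.58 without passing (adjusted p = 0.101), Polrmt, the RNA polymerase, by 0.10 and Lrpprc, which stabilises mitochondrial messenger RNA, by 0.27. Of 14 measured nuclear regulators of mitochondrial biogenesis (15 listed), 0 passed (limma), and the median was -0.04. At an unadjusted p under 0.05, 1 was higher and 1 lower (7.14% each), beside 17% and 6.21% of all genes. Nrf1 changed by -0.06, Gabpa, the DNA-binding subunit of GABP, by -0.20, Esrra, an orphan nuclear receptor, by 0.10, and Ppargc1a, the coactivator PGC-1α, by -0.29 (adjusted p = 0.408).

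In the same lists 0 genes passed with UAB30 against Control (limma), beside 0.0823% of all genes. With Targretin 0 rose in the other lists, and 2 of the 16 genes of mitochondrial DNA maintenance and transcription rose (12.5%), beside 1.51% of all genes. These were Hsd17b10 (log2 0.62, adjusted p = 0.0233) and Polg, the catalytic subunit of the mitochondrial DNA polymerase (0.75, adjusted p = 0.0102). Polg read 9.13, 9.12, 8.76 and 9.06 in Control, 8.68, 9.0, 8.89 and 8.79 with MeUAB30 and 10.12, 9.40, 9.91 and 9.65 with Targretin. Its Targretin arrays lay above all others, and it was also higher with Targretin than with UAB30 (0.68, adjusted p = 0.0319) and with MeUAB30 (0.93, adjusted p = 0.00121). Between the analogs, Ppargc1a was lower with MeUAB30 than with UAB30 at the same dose (-0.86, adjusted p = 0.0298), reading 7.37, 6.69, 6.99 and 7.08 with UAB30 and 6.19, 5.88, 6.09 and 6.51 with MeUAB30, without overlap. Targretin was higher than MeUAB30 for Ppargc1a (0.80, adjusted p = 0.0210) and Iars2, the isoleucine synthetase (1.09, adjusted p = 0.0100). It was lower for Aurkaip1 (-0.68, adjusted p = 0.0209) and Pprc1, a relative of PGC-1α (-0.64, adjusted p = 0.00553). Against UAB30, Targretin was lower for Myc, a growth regulator (-1.33, adjusted p = 0.00144). Myc read 5.45 on Targretin replicate 2 and 6.34 to 6.35 on the other Targretin arrays. With UAB30 it read 7.85 on replicate 1 and 7.27 to 7.36 on the others, so both outlying arrays widened the difference. Of all genes, 1.39% were called between the analogs and 1.23% between Targretin and UAB30. Against MeUAB30, 1.72% were higher and 3.91% lower with Targretin. Single calls from these short lists are not read as a result about the lists. Single arrays decided the Hsd17b10 call with Targretin (any of Targretin replicates 1, 3 and 4 and Control replicates 1, 3 and 4; adjusted p up to 0.0860), the Ppargc1a difference between the analogs (all but UAB30 replicate 2 and MeUAB30 replicate 4; up to 0.114) and the Polg difference from UAB30 (all but UAB30 replicate 1 and Targretin replicate 2; up to 0.121). Against MeUAB30 they decided Ppargc1a (Targretin replicates 1 and 4, MeUAB30 replicates 2 and 3; up to 0.0787) and Aurkaip1 (MeUAB30 replicates 2, 3 and 4; up to 0.0746), and not Polg, Iars2 or Pprc1.

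**Figure D5:**
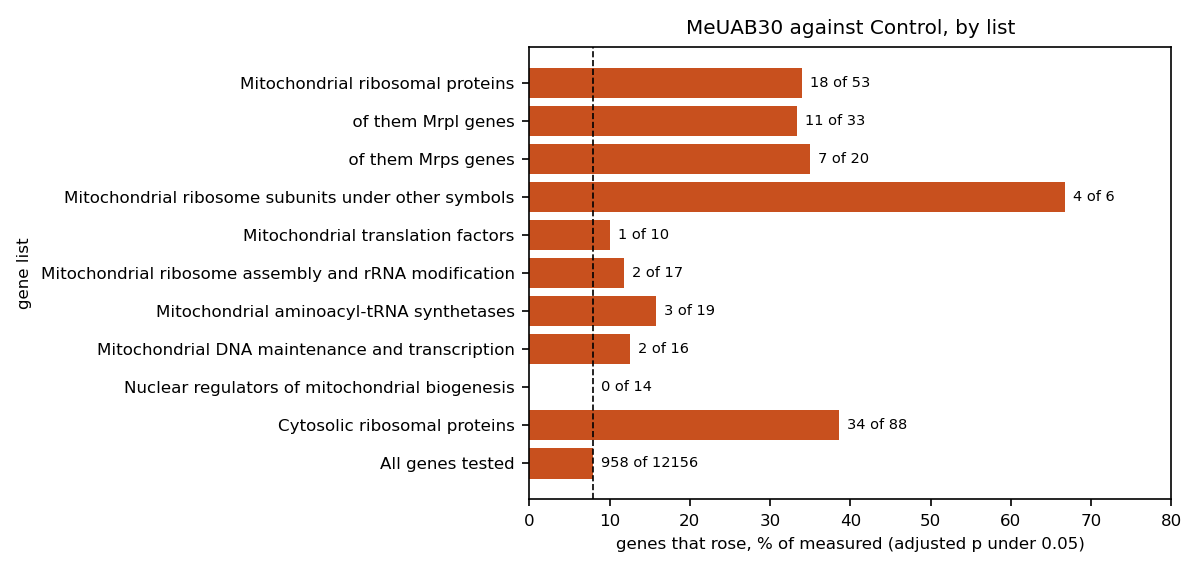
Share of the measured genes of each list that rose with MeUAB30 against Control (x axis, percent, adjusted p under 0.05; 4 arrays per group), with the counts beside the bars; the dashed line marks the 7.88% of all genes tested that rose. Mitochondrial ribosomal proteins stand at 34.0%, genes taken by name as cytosolic ribosomal proteins at 38.6%, and 0 nuclear regulators rose. The list of subunits under other symbols also holds Oxa1l, which is no subunit, and the list of synthetases also holds amidotransferase subunits.

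Cytosolic ribosomal proteins, which build the ribosome that translates the nuclear messenger RNAs, were measured the same way. They were taken by name, as symbols of Rpl, Rps or Rplp followed by a digit, and Rpsa. Such a rule can also take in genes that are no ribosomal proteins, such as kinases named after one. No gene was removed from the 88 for this reason, so the values below describe the list by name. With MeUAB30, 34 of 88 (38.6%) rose and 0 fell, with a median log2 change of 0.52. Beside them, 34.0% of the mitochondrial members and 7.88% of all genes rose, and the difference between the lists was not tested. With UAB30 their median was 0.21 and 0 passed (limma). At an unadjusted p under 0.05, 18 (20.5%) were higher and 0 lower, beside 6.34% and 1.49% of all genes. With Targretin their median was 0.19 and 1 rose (1.14%), beside 1.51% of all genes. Their mean deviation by array was -0.21, 0.01, -0.37 and -0.31 in Control, 0.20, 0.18, 0.29 and 0.32 with MeUAB30, and -0.49 on Targretin replicate 2. MeUAB30 replicate 1 was not the lowest array of its group here, unlike for the mitochondrial members.

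Markers of other liver cells were read beside these results, with 10 lists in all. Of 12 measured Kupffer cell and macrophage markers (14 listed), 0 passed with MeUAB30 (limma), and 11 had positive estimates, with a median log2 change of 0.57. At an unadjusted p under 0.05, 8 (66.7%) were higher and 0 lower, beside 17% and 6.21% of all genes. Of the defining Kupffer cell markers, Cd163 and Timd4 were not analysed here. The summed intensity of the 12 measured markers was 2884 to 5512 in Control and 4284 to 7045 with UAB30. It was 4764 to 5743 with MeUAB30 and 2930 to 6032 with Targretin, so the groups overlapped. The mean deviation of these markers was also lowest on Control replicate 3 (-0.69) and Targretin replicate 2 (-0.74). Of 6 measured hepatocyte markers (8 listed) 1 fell with MeUAB30 (16.7%), beside 2.01% of all genes. It was Apob, which the liver secretes on lipoproteins (adjusted p = 0.0470, up to 0.145 with single arrays left out, and lost without any but Control replicate 3). The list's median was -0.18. The summed hepatocyte signal was 64041 to 68473 in Control and 59445 to 62076 with MeUAB30, bright throughout and without overlap. Both measured neutrophil markers had positive estimates without passing, and their sum was 108 to 139 in Control and 183 to 202 with MeUAB30. Of 7 measured proliferation markers 0 passed, with a median of -0.22. Of 5 erythroid markers 1 fell (20%, beside the same 2.01%), Epb42, a red cell membrane protein. In the remaining lists, of endothelial, stellate, bile duct, T and NK, and B and plasma cells, 0 markers passed, with medians between -0.04 and 0.05. The part of these cell markers in the members' changes was not tested.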

How the data were processed

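Liver RNA was measured on 16 arrays, 4 for each of 4 diets, grouped by their titles. The deposited files hold 1 linear intensity per probe set and array for 887828 probe sets, with array medians of 22.2 to 23.8. The sources used here do not give how the authors summarised, background-corrected and normalized the probes. The build is rn4, per the submitters' processing notes. Probe sets with 1 symbol in the platform annotation were used (177688; 2920 had several and 707220 none), and 3454 of 14903 symbols were updated through RefSeq.

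Intensities entered as log2(intensity + 1). Probe sets whose mean lay at or above the 75th percentile of all (log2 6.01, intensity 63.6) were kept, which left 12156 genes, each summarised by median polish. With limma 3.58.1 in R 4.3.3, group means were estimated in 1 model of the 16 arrays. Benjamini-Hochberg adjustment covered all genes of each of 6 contrasts, with a threshold of 0.05, to which "rose" and "fell" refer; every adjusted p in the text comes from this model. The model was also run on simulated data with independent noise for each gene and array. Such noise lacks the array-wide spread described above, so that run does not show how the calls behave under it. The number of arrays limits the precision, and the median SE of a member's log2 change with MeUAB30 was 0.20.

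Members, lists and tests were chosen with earlier results of these data known, so no p-value is given over a list. Named members were the 8 largest rises and falls per contrast, or the 3 lowest adjusted p-values where fewer than 3 passed, with the list gene of lowest adjusted p per list and contrast, and fixed genes, of which Mrpl11 was not analysed here. Named after their values were seen were the other 9 members that rose, Mrpl46, Mrps10, Mrpl20, Mrpl2, further list genes that passed, and members named under alternatives. The alternatives were another pseudocount, filter, normalization and gene summary, fits of 2 groups, array weights, a replicate block, the intensity range as a covariate, and arrays left out.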

Additional observations from a re-analysis of the deposited data

Results flagged for a closer look

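In groups of 4 arrays, an array was singled out when its gap to the nearest of the others, as a share of the group's range, exceeded Dixon's 95% critical value. Of 204 groups examined 16 passed this value. Chance gives about 1 in 20 for independent groups, but these groups share the same arrays and their genes moved together. The count is therefore a description and is not set against that rate. Targretin replicate 2 was the array in 11 of the 16. Its mean member deviation was -0.61, against 0.05 to 0.11 on the other Targretin arrays. Among members its log2 intensities were 7.07 for Mrpl1 (others 7.95 to 7.98), 7.45 for Mrpl23 (8.23 to 8.38), 6.81 for Mrpl46 (7.65 to 7.75), 7.95 for Mrpl54 (8.63 to 8.75), 7.78 for Mrps10 (8.57 to 8.61) and 7.63 for Mrps18a (8.23 to 8.32). Among the other genes it read 6.96 for Cars2 (7.49 to 7.59), 5.45 for Myc (6.34 to 6.35), 7.08 for Polrmt (7.34 to 7.39) and 7.33 for Tars2 (7.80 to 7.85). Mrpl55 was singled out on Control replicate 2, at 7.59 (6.85 to 6.90), and on MeUAB30 replicate 1, at 8.04 (8.32 to 8.35). MeUAB30 replicate 4 read 8.08 for Mrpl46 (7.67 to 7.72), and MeUAB30 replicate 1 read 8.16 for Dap3 (8.51 to 8.57). UAB30 replicate 1 read 7.85 for Myc (7.27 to 7.36). What set these arrays apart was not tested.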

How the results depend on the processing

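The count of members called with MeUAB30 against Control was 18 and stayed between 12 and 22 with another pseudocount, filter, normalization or gene summary, a fit of 2 groups or the intensity range as a covariate. It was 35 with array weights (66.0%, beside 14.7% of all genes that rose), and 34 without the 4 arrays set apart, which were chosen on the members' own levels. With the covariate 21 rose and 1, Mrps10, fell, and of all genes 47.0% of the calls were rises, against 79.7% in the main model. Leaving out each array gave 11 to 24, and 9 of the 18 members kept their call throughout. Lost at least once were Mrpl23, Mrpl34, Mrpl38, Mrpl40, Mrpl52, Mrps12, Mrps16, Mrps26 and Mrps34, with adjusted p up to 0.159. Targretin against MeUAB30 gave 5 calls with quantile normalization (Mrpl34, Mrpl40, Mrpl54, Mrps2 and Mrps34; 5.65% of all genes were lower), 16 with array weights (9.2%), 29 with the covariate (12.5%), 1 without the 4 arrays (Mrpl1; 4.66%), 0 without Targretin replicate 2 and Control replicate 3, left out together after the data were seen, and 0 to 4 with single arrays left out. Targretin against Control gave 7 with array weights (4.45% of all genes rose), 1 with the covariate (Mrps10, which fell, beside 7.35% of all genes), 3 without the 4 arrays (Mrpl14, Mrps5 and Mrps15; 2.76% rose) and 0 to 2 with single arrays left out. MeUAB30 against UAB30 gave 9 with array weights (6.92% of all genes were higher) and 2 with the covariate (Mrpl16 and Mrps30; 2.62%), and Targretin against UAB30 gave 1 with the covariate (Mrps2, which fell, beside 3.74%). UAB30 against Control gave 0 under every alternative, and quantile normalization moved its rises from 9 of 10 to 11 of 14 calls over all genes. The members' medians ran from 0.32 to 0.63 for MeUAB30 against Control, 0.16 to 0.37 for UAB30 against Control, 0.0039 to 0.28 for Targretin against Control, 0.18 to 0.36 for MeUAB30 against UAB30 and -0.52 to -0.25 for Targretin against MeUAB30, the lowest of the first 3 with the covariate. The median for Targretin against UAB30 changed sign, from -0.11 to 0.08, without Targretin replicate 2, and was 0.03 with array weights and 0.0059 without the 4 arrays. The causes of these shifts were not tested. The labels do not say whether replicate numbers pair the arrays, and the correlations between same-numbered arrays cannot decide it. In each of the 6 comparisons at least 1 same-numbered pair correlated below 0.1, which does not exclude a shared batch for other pairs. These correlations ran from -0.504 to 0.574, and 1 to 4 of 8 arrays in a comparison correlated best with their own number. With the number as a replicate block 13 members were called for MeUAB30 against Control and 0 between Targretin and MeUAB30.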
